A study of Mus musculus with 36 samples.

Results

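The 9 genes described here encode transcription factors known to drive osteoclast formation: Nfatc1, Fos, Fosl2, Jdp2, Mitf, Spi1 (which encodes PU.1), Prdm1 (which encodes Blimp1), Bhlhe40 and Myc. They were taken by symbol, as 9 of the 30205 genes to which the deposited transcripts were assigned, and their 36 listed transcripts were summed per gene. RNA was sequenced from primary cells of 20-week-old mice, either wild-type controls (WT) or Mir324-null, which lack the microRNA gene Mir324. Bone marrow macrophages (BMM) are osteoclast precursors grown out of marrow with the growth factor M-CSF, and were then kept in 30 ng/mL M-CSF for 5 days. Cultures labelled osteoclasts (OC) were the same macrophages given 30 ng/mL M-CSF together with 50 ng/mL RANK-L, the cytokine that starts osteoclast formation, for 5 days. Osteoblasts (OB), the cells that form bone, grew out of collagenase-digested bone chips and spent 18 days in osteogenic medium with β-glycerophosphate and ascorbic acid. Each of the 6 groups held 6 libraries, with 14118972 to 26347581 estimated counts per library over the 36. The labels do not say whether libraries of a group came from separate mice, so the p-values measure the spread between these libraries, part of which may be technical. The labels also do not say whether Mir324 is absent from all cells of the animal or from some, and the level of Mir324 was not analysed here.

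RANK-L binds its receptor RANK on macrophages and acts through the adaptor TRAF6, NF-κB and MAP kinases. The AP-1 protein c-Fos and calcium signalling through calcineurin then raise NFATc1, which amplifies its own gene and switches on the genes for bone resorption. PU.1 and MITF give the macrophage lineage its competence to respond, and Blimp1 silences genes such as Irf8 and Bcl6 that hold the lineage back.

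The cultures were checked against 8 osteoclast marker genes. Their summed level ran from 28300 to 30780 CPM (estimated counts relative to library size, scaled by TMM over all 36 libraries) in WT OC, and from 87.3 to 125.5 in WT BMM. In null OC the sum was only 337 to 708 CPM, and Calcr, a defining marker, had 0 counts in all 6 libraries. The libraries labelled null osteoclasts therefore had little osteoclast RNA, and "null OC" below means the RANK-L culture, not a cell type. The 8 macrophage markers summed to 10480 to 14480 CPM in null OC against 4799 to 5253 in WT OC. The OB cultures carried both kinds of RNA besides that of osteoblasts, with osteoblast sums of 54540 to 116300 CPM over 9 genes and osteoclast sums of 3917 to 4996 CPM in WT OB and 4775 to 7272 in null OB. The 10 neutrophil genes summed to 229 to 308 CPM in null OC and 11.9 to 15.4 in WT OC, and the 2 tested were both higher in null OC. Of the 10, 5 had 0 counts in every null OC library and 6 in every WT OC library, with Elane, Ltf and Ly6g among them in both.

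The microRNA gene makes a pair of mature strands, shown because the genotype removes them and because their seeds can be searched in the 9 genes. Capitals mark the seed, bases 2 to 8 from the 5′ end (RefSeq, GRCm38.p6, plus strand of chromosome 11, bases 70012060 to 70012082 and 70012095 to 70012114).
miR-324-5p: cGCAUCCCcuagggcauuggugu
miR-324-3p: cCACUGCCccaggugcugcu

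When the longest 3′ UTR that GENCODE M21 (GRCm38) lists for each gene was searched, Fosl2 was the only 1 of the 9 with a match to a seed. It had 2 matches to the 7 bases complementary to the miR-324-5p seed, in a UTR of 4653 bases, at UTR bases 692 and 1047. No member had a match for miR-324-3p. Of 20046 genes with a 3′ UTR, 7.7% had a miR-324-5p match and 13.5% a miR-324-3p match, at a median UTR length of 955 bases. Fosl2 encodes Fra-2, an AP-1 protein. The matches lay on the plus strand at chr5:32153881-32153887 and chr5:32154236-32154242, in the 3′ UTR of Fosl2-201, and are shown in capitals with 9 bases on each side. A match is a description of the letters and not a measured site.
Fosl2, first match: gccgtcactGGGATGCgccaaggac
Fosl2, second match: aatgagtgtGGGATGCggggtctgc

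Promoters, from 250 bases before to 50 bases after a transcript start, were listed for 5 members (Fos, Fosl2, Jdp2, Mitf and Prdm1; RefSeq, GRCm38.p6). Both strands were searched for AP-1 (TGANTCA), κB (GGGA, then any 4 bases, then CC), NFAT (GGAAA), E-box (CACGTG), CRE (TGACGTCA) and PU.1 (GAGGAAGT) letters. Those of Fosl2 and Prdm1, which RANK-L raised in WT macrophages, are shown as examples chosen after their values were seen, with the matches named here in capitals. Fos, Jdp2 and Mitf also rose there, and their promoters are not shown. The Fosl2 promoter held 3 κB matches, whose first bases lay 182, 55 and 43 bases before the start, and 20.7% of 32851 promoters held at least 1. The Prdm1 promoter held 1 AP-1 match, 48 bases before the start, found in 7.8% of promoters. Of the others, 1 Jdp2 promoter and 1 Mitf promoter each held a κB and an NFAT match, 1 Mitf promoter held a CRE and an NFAT match, and the Fos promoter held none. Of all promoters, 61.3% held the NFAT, 7.2% the E-box, 3.2% the PU.1 and 1.8% the CRE letters.
Fosl2 promoter, chr5:32136222-32136521, plus strand: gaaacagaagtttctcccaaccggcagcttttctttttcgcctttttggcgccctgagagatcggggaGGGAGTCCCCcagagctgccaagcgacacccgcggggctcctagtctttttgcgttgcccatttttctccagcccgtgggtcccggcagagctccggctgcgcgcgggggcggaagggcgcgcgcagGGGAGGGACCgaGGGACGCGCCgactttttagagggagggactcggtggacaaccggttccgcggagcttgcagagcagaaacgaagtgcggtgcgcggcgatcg
Prdm1 promoter, chr10:44458699-44458998, minus strand: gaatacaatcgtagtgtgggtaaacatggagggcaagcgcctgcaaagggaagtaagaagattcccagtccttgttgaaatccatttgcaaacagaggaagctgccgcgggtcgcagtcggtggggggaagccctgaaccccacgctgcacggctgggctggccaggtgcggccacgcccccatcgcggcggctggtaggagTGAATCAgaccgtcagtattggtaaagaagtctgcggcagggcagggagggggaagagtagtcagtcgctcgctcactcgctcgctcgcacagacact

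In WT macrophages, RANK-L raised 8 of the 9 factors, at an adjusted p under 0.05 in edgeR's quasi-likelihood test with adjustment over all 12661 genes tested. None fell, and the median log2 fold change of the 9 was 2.91, against -0.003 over all genes tested. Of all genes, 30.4% were called higher and 30.1% lower in that comparison. In null macrophages 3 of 9 rose and none fell, with a median of 0.25, where 6.78% of all genes were called higher and 6.07% lower. The direct test of the difference between these RANK-L responses called 8 of the 9 as a smaller rise in null and Myc as a larger one, and 26.1% of all genes were called lower and 25.3% higher by that test. Jdp2 passed the filter on low counts only through the WT OC group, so its place among these counts was set by that group. The WT OC and WT BMM ranges were apart for 8 of the 9, Jdp2 among them, and for 50.4% of all genes tested. Fewer cells of a type and less RNA per cell cannot be told apart in these bulk cultures.

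**Figure D1:**
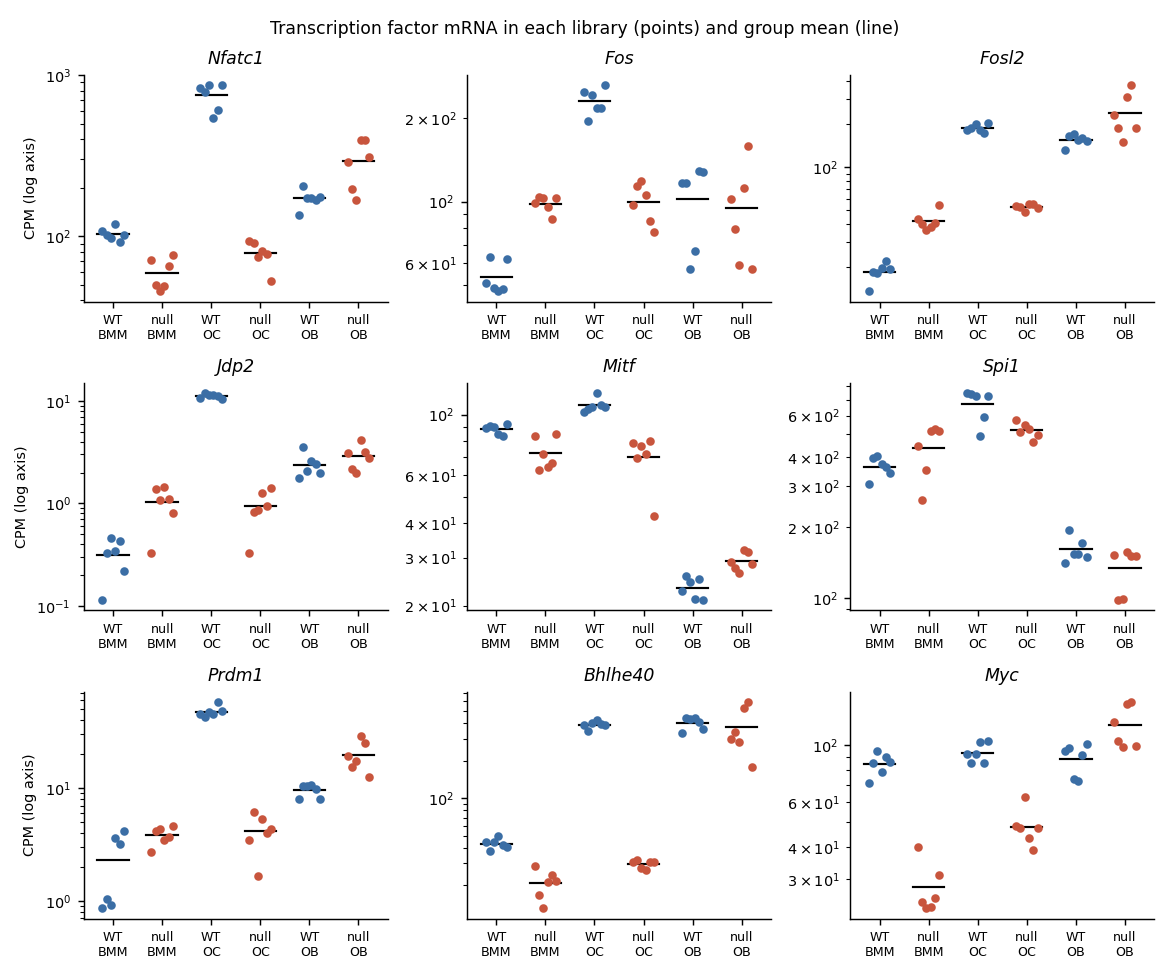
CPM of each of the 9 genes (log axis) in every library, as points, with the group mean as a line, for WT (blue) and null (red) in BMM, OC and OB cultures. WT OC stands above WT BMM without overlap for 8 genes, Myc excepted. Ranges of these 2 groups were apart in either direction for 50.4% of all genes tested. The null OC points lie at or near those of null BMM, except for Myc, where 5 of 6 lie above all null BMM points.

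NFATc1 is the master regulator of the osteoclast programme. Its gene had 91.8 CPM in the lowest, 102 in the median and 119 in the highest WT BMM library. With RANK-L the WT libraries ran from 538 through a median of 809 to 870 CPM. All 6 WT OC libraries were above all WT BMM libraries, although replicates 4 and 5, at 538 and 607 CPM, sat below the other 4. That was a log2 ratio of 2.91 (SE 0.15, adjusted p 1.74e-15), a 7.5-fold rise. Null BMM started lower, with 45.5, 57.2 and 76.3 CPM as lowest, median and highest, all below every WT BMM library. Null OC ran from 53.0 through 79.0 to 93.2 CPM, overlapping null BMM, with a log2 ratio of 0.39 (SE 0.14) that missed the threshold (adjusted p 0.0632). It passed the threshold under DESeq2 (adjusted p 0.0303) and in 4 of the 24 fits that left out 1 library, those without null BMM replicate 1 or 6, null OC replicate 6 or WT OC replicate 4 (log2 0.39 to 0.47). It also passed without WT OC replicates 4 and 5 and null OC replicate 6 (log2 0.47, adjusted p 0.00836). In that fit, chosen after the data were seen, 4 of the 9 factors rose in null, where 6.51% of all genes were called higher. The difference between the responses was -2.52 (SE 0.20, adjusted p 3.86e-11). On the deposited TPM scale, which allows genes to be compared, Nfatc1 averaged 271 ± 49.4 (SD, n = 6) in WT OC, against 33.2 ± 2.94 in WT BMM and 23.7 ± 4.63 in null OC.

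Fos and Fosl2 encode AP-1 proteins, and Fos is needed for the rise of Nfatc1. WT BMM had 47.5, 49.7 and 62.9 CPM of Fos (lowest, median, highest), and WT OC had 194, 231 and 263 CPM. Those groups did not overlap, and the rise was 4.46-fold (log2 2.16, SE 0.10, adjusted p 6.93e-17). Null BMM already had 86.2, 101 and 104 CPM, above all WT BMM libraries. In null OC, at 77.7, 101 and 118 CPM, Fos was spread around the null BMM values and did not pass the test (log2 0.01, 95% interval -0.17 to 0.20, adjusted p 0.951). Fosl2 behaved alike in WT, from 13.6, 19.1 and 22.1 CPM in BMM to 175, 185 and 202 CPM in OC, a 10.4-fold rise (log2 3.38, SE 0.10, adjusted p 3.45e-21). Null BMM had 36.4, 40.4 and 54.3 CPM of Fosl2, again above every WT BMM library. In null OC it reached 49.0, 53.4 and 55.7 CPM, a rise of 0.33 on the log2 scale (SE 0.09, adjusted p 0.0189) that was not past the threshold when all 36 libraries were fitted together (adjusted p 0.112). The RANK-L responses of Fos and Fosl2 differed between genotypes by -2.14 (SE 0.14) and -3.05 (SE 0.13), with adjusted p of 2.25e-13 and 5.80e-17.

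Jdp2 encodes a small AP-1 repressor that binds Jun proteins and is needed for osteoclast formation. It was nearly silent in macrophages, with 0.115, 0.335 and 0.455 CPM (2 to 9 counts) in WT BMM. WT OC had 10.3, 11.3 and 11.8 CPM, and no library came near the BMM values. On the log2 scale the fitted rise was 5.16 (SE 0.31, adjusted p 2.78e-14). Null OC had 0.328, 0.904 and 1.42 CPM, inside the null BMM range of 0.326 to 1.45, with a log2 ratio of -0.15 (SE 0.30, adjusted p 0.784). The interaction was -5.31 (SE 0.43, adjusted p 3.76e-11). The filter on low counts let Jdp2 in only through WT OC, which fixed the direction of this interaction and of the WT rise.

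Mitf and Spi1 encode lineage factors and changed least among the called genes. Mitf had 83.4, 89.9 and 92.7 CPM in WT BMM and 102, 107 and 120 CPM in WT OC. The groups did not overlap, but the rise was 1.26-fold (log2 0.33, SE 0.10, adjusted p 0.00555). Null BMM had 62.5, 68.9 and 84.6 CPM and null OC 42.6, 74.2 and 80.4 CPM, and the response in null was -0.05 (SE 0.10, adjusted p 0.778). The difference of responses, -0.38 (SE 0.14, adjusted p 0.0263), had an adjusted p of 0.0504 without null BMM replicate 1 and 0.0532 without replicate 6. Spi1 had 307, 367 and 404 CPM in WT BMM and 492, 727 and 746 in WT OC, a 1.91-fold rise without overlap (log2 0.93, SE 0.13, adjusted p 6.83e-07). As for Nfatc1, WT OC replicates 4 and 5 were the lowest of their group for Spi1. Null OC had 463, 519 and 574 CPM of Spi1 and null BMM 262, 479 and 526.3, and the rise of 0.25 (SE 0.13) missed the threshold (adjusted p 0.196).

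Prdm1 and Bhlhe40 encode transcriptional repressors, Blimp1 and the helix-loop-helix protein DEC1. Prdm1 rose 20.99-fold in WT (log2 4.39, SE 0.31, adjusted p 3.29e-12), from 0.859, 2.11 and 4.18 CPM to 42.9, 46.3 and 58.1. The WT BMM libraries fell into 3 at 0.859 to 1.03 CPM, replicates 1 to 3, and 3 at 3.19 to 4.18, replicates 4 to 6, and both sets were below every WT OC library. Null BMM had 2.71, 3.96 and 4.57 CPM and null OC 1.66, 4.18 and 6.17, with a log2 ratio of 0.13 (SE 0.30, adjusted p 0.809). Bhlhe40 went from 37.7, 43.6 and 49.4 CPM to 347, 392 and 425 in WT, a 9.31-fold rise (log2 3.22, SE 0.12, adjusted p 4.73e-19). Null BMM had 13.1, 21.7 and 28.6 CPM, all below WT BMM, and null OC 26.7, 30.8 and 31.9. The null rise of 0.50 (SE 0.11, adjusted p 0.00718) still left every null OC library below every WT BMM library, and it was not past the threshold when all 36 libraries were fitted together (adjusted p 0.0666). The interactions were -4.26 (SE 0.42, adjusted p 5.27e-09) for Prdm1 and -2.72 (SE 0.16, adjusted p 4.41e-14) for Bhlhe40.

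Myc, a growth and metabolism regulator that is known to rise in the RANK-L response, was the exception in the main fit. WT BMM had 71.2, 86.1 and 95.3 CPM and WT OC 85.0, 92.5 and 104, overlapping, with a log2 ratio of 0.19 (95% interval -0.03 to 0.42, adjusted p 0.145). Under limma-voom with quality weights the WT rise of Myc was called (log2 0.19, SE 0.07, adjusted p 0.0128). Null BMM had only 23.1, 24.9 and 40.0 CPM, and null OC 39.0, 47.5 and 62.9. The null rise was 1.72-fold (log2 0.78, SE 0.12, adjusted p 4.32e-04), and 5 of 6 null OC libraries were above all null BMM libraries. The null response exceeded the WT response by 0.59 (SE 0.16, adjusted p 0.00391), from a lower starting level.

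**Figure D2:**
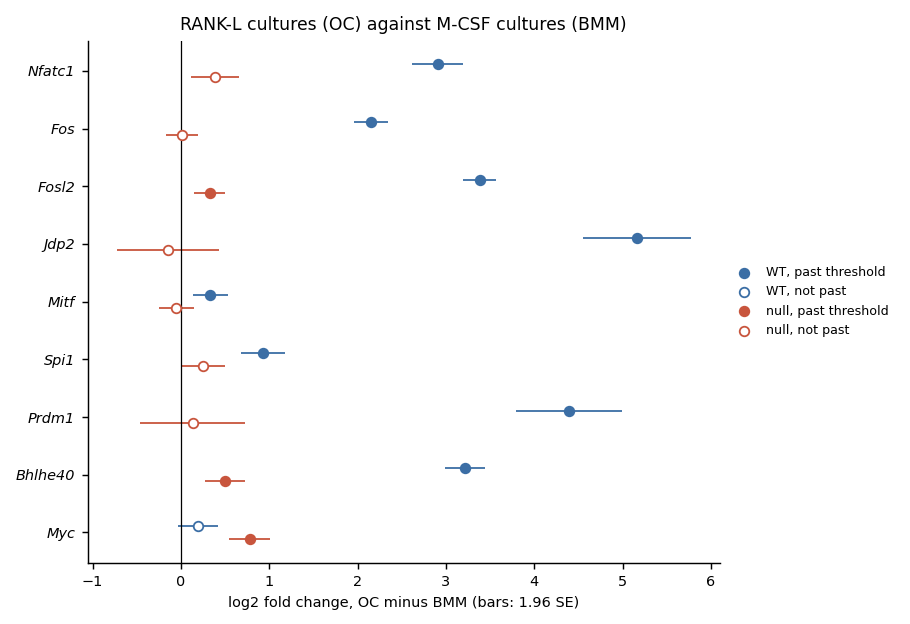
Log2 fold change of OC over BMM in WT (blue) and null (red) for each gene, with bars of the 95% interval and filled points where the adjusted p was under 0.05. The WT points of 7 genes lie at 0.93 or above, while all null points lie between -0.15 and 0.78.

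Between genotypes, Nfatc1, Fos, Fosl2, Mitf, Spi1, Prdm1, Bhlhe40 and Myc were lower in null OC than in WT OC, where 33.1% of all 12121 genes tested were called lower and 32.4% higher. Jdp2 was called lower as well, but it passed the filter on low counts only through WT OC, which fixed its direction. The median log2 fold change of the 9 was -1.88 against -0.025 for all genes. Leaving out WT OC replicates 4 and 5 with null OC replicate 6, an alternative chosen after the data were seen, gave 9 calls as well, and 31.8% of all genes were called lower in that fit. For Bhlhe40 the fold change was -3.76 (SE 0.06, adjusted p 8.20e-17), for Jdp2 -3.63 (SE 0.23, adjusted p 3.50e-10) and for Prdm1 -3.55 (SE 0.19, adjusted p 7.46e-11). Nfatc1 was 9.95-fold lower (log2 -3.31, SE 0.15, adjusted p 1.84e-11). Fosl2 was lower by a log2 ratio of -1.88 (SE 0.06, adjusted p 2.94e-14), Fos by -1.26 (SE 0.10, adjusted p 9.12e-09) and Myc by -1.01 (SE 0.10, adjusted p 1.24e-07). The smallest differences were in Mitf, at -0.68 (SE 0.11, adjusted p 5.52e-05), and Spi1, at -0.42 (SE 0.09, adjusted p 8.13e-04). The null and WT ranges were apart for 8 of the 9, Jdp2 among them, and for 45.4% of all genes tested, and Spi1 overlapped.

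In BMM, before any RANK-L, the factors already differed between genotypes, and in opposite directions. Of the 8 tested, 2 were higher and 4 lower in null, where 27% of 11925 genes were called higher and 25.4% lower. Fos rose by 0.89 (SE 0.08, adjusted p 2.88e-07) and Fosl2 by 1.19 (SE 0.12, adjusted p 3.84e-07) on the log2 scale. Myc was lower by a log2 ratio of -1.59 (SE 0.12, adjusted p 3.12e-08), Bhlhe40 by -1.03 (SE 0.14, adjusted p 2.02e-05), Nfatc1 by -0.79 (SE 0.12, adjusted p 4.99e-05) and Mitf by -0.28 (SE 0.08, adjusted p 0.00626). Genotypes did not overlap for the first 5 of these 6, and Mitf overlapped. Ranges were apart for 30.8% of all genes tested in BMM. Spi1 gave 0.27 (SE 0.15, adjusted p 0.134) and Prdm1 0.73 (SE 0.37, adjusted p 0.108). The Spi1 difference was past the threshold without null BMM replicate 2 (log2 0.38, adjusted p 0.00563), and that of Prdm1 without WT BMM replicate 6 (log2 0.99, adjusted p 0.0369). Prdm1 was also called higher with all 36 libraries in the fit (log2 0.71, adjusted p 0.0449) and with a replicate block (log2 0.95, adjusted p 0.0461). With that block and an offset for transcript length it was called as well (log2 1.07, adjusted p 0.0318). Jdp2 was not tested at these counts. Without the filter it gave 1.68 (SE 0.40, adjusted p 0.00235), at 1.02 ± 0.414 CPM in null BMM and 0.315 ± 0.129 CPM in WT BMM (SD, n = 6). Markers of cell types moved with genotype in BMM too. Of the 8 macrophage markers 5 were lower and 2 higher in null, from Mrc1 (-2.30, SE 0.11) to Adgre1 (1.99, SE 0.08), and their sum was 9173 to 10250 CPM in WT and 12530 to 14190 in null. The 10 neutrophil genes summed to 19.3 to 23.6 CPM in WT and 212 to 247 in null, and the 2 tested were both higher in null. Elane, S100a9 and Retnlg had 0 counts in all libraries of both groups, as had Ly6g in WT and Ltf in null. The 9 osteoblast markers summed to 10.5 to 29.2 CPM in WT and 53.05 to 128 in null. The 8 osteoclast markers summed to 87.3 to 125.5 CPM in WT and 238 to 313 in null. Of the 5 osteoclast markers tested, 2 were higher and 2 lower in null. The part of these cells in the BMM result was not tested.

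In OB, 5 of 9 were higher in null and none lower, where 15.5% of 13607 genes were called higher, 16.9% lower and so 32.5% in either direction. Prdm1 changed most, from 8.01, 10.1 and 10.6 CPM in WT to 12.6, 18.5 and 29.2 CPM in null without overlap (log2 1.04, SE 0.18, adjusted p 7.34e-04). Nfatc1 rose by 0.76 (SE 0.21, adjusted p 0.0154), Fosl2 by 0.61 (SE 0.20, adjusted p 0.0333), Myc by 0.42 (SE 0.12, adjusted p 0.0197) and Mitf by 0.31 (SE 0.07, adjusted p 0.00568). Null OB replicates 4 and 5 had the highest values of their group for Nfatc1 (397 and 395 CPM), Fosl2 (311 and 376), Bhlhe40 (534 and 594) and Prdm1 (29.2 and 25.02). The same held for Myc (144.5 and 147.7), Mitf (31.9 and 31.5), Fos (112.1 and 158.2) and Jdp2 (4.155 and 3.139) in these 2 replicates, but not for Spi1. They also had the highest osteoclast marker sums, 7272 and 7021 CPM, where the other 4 null OB libraries had 4775 to 5725. Of the 8 macrophage markers 7 were lower and none higher in null OB, with sums of 2985 to 3531 CPM in WT and 2252 to 2669 in null. Of the 9 osteoblast markers 6 were higher and none lower, with sums of 54540 to 78230 CPM in WT and 97160 to 116300 in null. The part of any of these cells in the OB result was not tested. Without these 2 replicates, an alternative chosen after the data were seen, 3 of 9 were past the threshold, 2 higher and 1 lower, where 15.4% of all genes were called higher and 15.1% lower. Prdm1 (0.77, adjusted p 0.00103) and Mitf (0.26, adjusted p 0.022) were still higher, Bhlhe40 was called lower (-0.55, adjusted p 0.0298), and Nfatc1 (0.49, adjusted p 0.0636), Myc (0.27, adjusted p 0.0674) and Fosl2 (0.28, adjusted p 0.0561) missed the threshold. With an offset for the trend of each library with transcript length, 2 of 9 passed, Prdm1 and Myc, where 7.22% of all genes were called higher. Fosl2 also lost its call in 8 of the 12 fits that left out 1 library. Fos gave -0.12 (SE 0.29, adjusted p 0.788), Bhlhe40 -0.13 (SE 0.25, adjusted p 0.738), Spi1 -0.27 (SE 0.13, adjusted p 0.137) and Jdp2 0.26 (SE 0.21, adjusted p 0.383). Under limma-voom with quality weights Spi1 was called lower in null OB (log2 -0.35, adjusted p 0.0454).

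**Figure D3:**
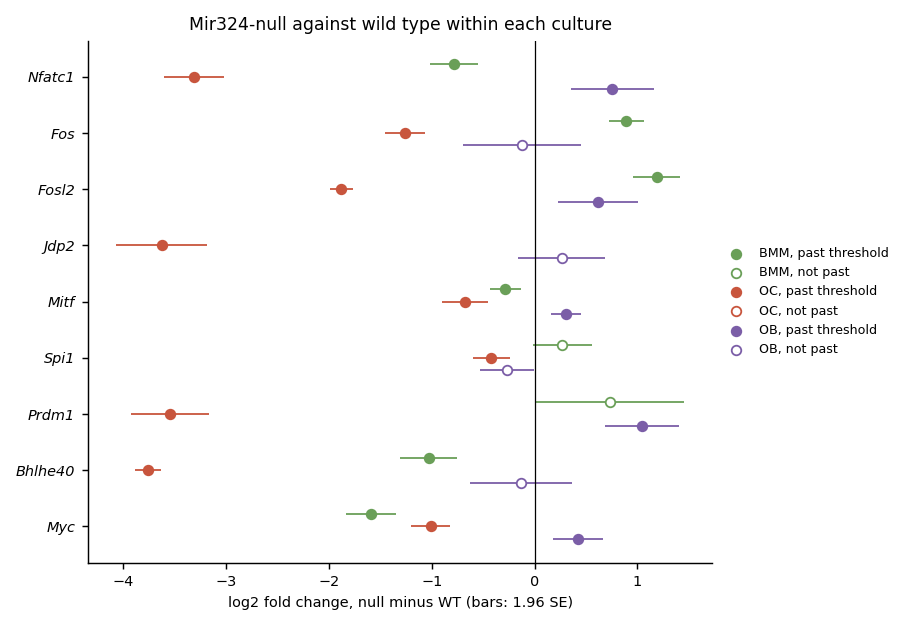
Log2 fold change of null over WT in BMM (green), OC (red) and OB (violet) for each gene, with bars of the 95% interval and filled points where the adjusted p was under 0.05. All 9 OC points lie below 0, from -3.76 to -0.42, and the BMM points run from -1.59 to 1.19 (Jdp2 was not tested there).

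The test of the difference between genotype effects in OB and OC called 8 of 9, all toward a higher effect in OB, where 27.8% of all genes were called in that direction and 27.4% in the other. Spi1 was not called, at 0.17 (95% interval -0.21 to 0.54). Between OB and BMM, 4 members had a higher and 4 a lower genotype effect in OB, where 21.6% and 24.3% of all genes were called. The higher ones were Myc (2.02, SE 0.17), Nfatc1 (1.56, SE 0.24), Bhlhe40 (0.91, SE 0.25) and Mitf (0.61, SE 0.13). Those lower were Jdp2 (-1.43, SE 0.41), Fos (-1.01, SE 0.27), Fosl2 (-0.56, SE 0.19) and Spi1 (-0.52, SE 0.19). For Spi1 5 of 36 fits that left out a library lost the call, and for Fosl2 1 of 36, without null BMM replicate 6. With the offset for transcript length, Mitf (0.28, adjusted p 0.0542) and Spi1 (-0.33, adjusted p 0.188) were not called. With a replicate block besides the offset they were not called either (adjusted p 0.0615 and 0.227).

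Across the WT cultures, 7 of the 9 were lower in OB than in OC (36.7% of all 14268 genes tested were called lower) and none higher (41.3%). Bhlhe40 and Myc did not pass. Bhlhe40 had its highest group mean in WT OB, 404 ± 46.8 CPM (SD, n = 6), with WT OC at 391 ± 25.1 and null OB at 372 ± 159, and these neighbours did not pass the test (adjusted p 0.964 and 0.475). Fosl2 had group means of 241 ± 85.9 CPM in null OB, 188 ± 11.0 in WT OC (adjusted p of that step 0.0478) and 156 ± 13.3 in WT OB. The first place of null OB rested on replicates 4 and 5, since the other 4 libraries averaged 189.5 ± 32.5 CPM (151 to 231), a range that spans that of WT OC. The OC to OB step of Fosl2, -0.33 (SE 0.13, adjusted p 0.0257), fell to -0.09 and lost the call with the offset for transcript length, and also lost it under DESeq2 (adjusted p 0.0842). Mitf and Spi1 were lowest in OB, with Mitf at 23.3 ± 1.99 CPM and Spi1 at 161 ± 19.5 in WT OB. Against WT BMM, WT OB had 6 members higher (41.5% of all genes) and 2 lower (35.3%), the lower being Mitf (-1.93, SE 0.10) and Spi1 (-1.18, SE 0.14). Fos stood in one plateau: WT OB, null OC, null BMM and null OB had means of 102, 99.7, 98.3 and 94.7 CPM, and no neighbours among these 4 passed the test (adjusted p 0.732 to 1). In the order of Nfatc1 groups, WT BMM (103 ± 9.18 CPM) stood above null OC (78.2 ± 14.4), with an adjusted p of 0.0406. Of all genes, 76% were called between WT OC and null OB, 77.2% between WT OB and null OC, 76% between null OB and null BMM, 50.4% between WT BMM and null OC and 14.7% between null OC and null BMM.

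On the TPM scale Spi1 was the most abundant of the 9 in WT BMM, at 362 ± 39.2, and in WT OC, at 799 ± 98.3. The least abundant was Jdp2, at 0.325 ± 0.137 TPM in WT BMM and 12.7 ± 0.771 in WT OC. In WT OC the order below Spi1 was Nfatc1 (271), Bhlhe40 (235 ± 25.4), Fos (196 ± 22.2), Myc (74.7 ± 8.53), Fosl2 (52.5 ± 3.97), Mitf (37.2 ± 3.35) and Prdm1 (17.6 ± 1.92).

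At the transcript level, 17 of 26 tested transcripts of the 9 genes rose and 1 fell with RANK-L in WT (30.9% of all transcripts were called in either direction). In null 1 of 26 rose and none fell (2.15%). In OC 18 of 24 were lower and 1 higher in null (39.2%), in BMM 8 of 18 lower and 3 higher (29.5%), and in OB 5 of 22 higher and none lower (12.7%). These counts hold the Jdp2 transcripts, which could not be separated, and both of Myc-201 and Myc-205, which had identical values. With that pair counted as 1 and Jdp2 left out, 14 of 22 rose and 1 fell with RANK-L in WT, 16 of 21 were lower and 1 higher in null OC, and 7 of 17 were lower and 3 higher in null BMM. These counts still hold transcripts that passed the filter on low counts through some groups only. Nfatc1-204, at 0 in BMM and null OC, passed through WT OC, which fixed its direction. Nfatc1-203, at 0 in WT OC, was the 1 that fell and the 1 higher in null OC. Prdm1-202 and Bhlhe40-202 did not pass in BMM alone and entered the RANK-L test through OC libraries. The proportions of Nfatc1 transcripts also moved. Nfatc1 has a proximal and a distal start, 4885 bases apart, and Nfatc1-201, the transcript with the short 3′ end, ends 41230 bases before the long ones. Nfatc1-201 made 33.4% ± 2.10 (SD, n = 6) of Nfatc1 TPM in WT BMM and 70.5% ± 1.05 in WT OC. It was 38.1% ± 2.63 in null BMM and 40.0% ± 3.71 in null OC, with every null OC library (36.8% to 46.8%) below every WT OC library (69.3% to 72.4%). In OB it was 64.8% ± 2.30 in WT and 67.6% ± 2.71 in null.

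The transcripts with the distal start, Nfatc1-202 and Nfatc1-204, together took 29.5% ± 1.05 of Nfatc1 TPM in WT OC, against 14.1% ± 1.83 in WT BMM and 12.6% ± 6.56 in null OC. Nfatc1-203, with the proximal start and the long end, was 52.5% ± 2.60 in WT BMM and 47.4% ± 7.92 in null OC, but was listed at 0 in all WT OC and OB libraries. Nfatc1-204 was listed at 0 in all BMM and null OC libraries, so no fold is given for either. Nfatc1-206, a further annotated form with the distal start and the short end, was not analysed here, and reads from it could count to either class. As levels, Nfatc1-201 rose from 11.1 ± 1.18 to 191 ± 33.0 TPM in WT with RANK-L (log2 3.996, SE 0.16, adjusted p 1.58e-15) and from 6.72 ± 2.01 to 9.40 ± 1.59 in null (log2 0.45, SE 0.15, adjusted p 0.105).

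**Figure D4:**
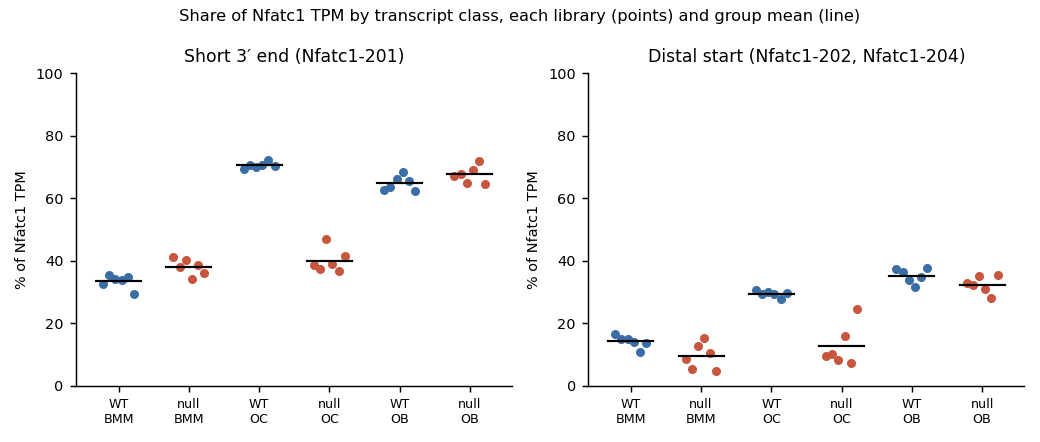
Share of Nfatc1 TPM, in percent, taken by the transcript with the short 3′ end (left) and by the distal-start transcripts (right) in every library, with the group mean as a line. The short-end share is 69.3% to 72.4% in WT OC and at most 46.8% in null OC and BMM.

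Mitf was nearly all Mitf-202, from the most upstream start, with 97.0% ± 0.81 of Mitf TPM in WT OC, 97.0% ± 2.70 in null OC and 96.1% ± 1.77 in WT BMM. Every other Mitf transcript averaged at most 0.96 TPM in any group. An antisense gene overlaps exons of Bhlhe40 and another overlaps exons of Jdp2 in the annotation, and whether reads were counted by strand is not given in the sources used here.

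Around the 9 factors, 8 gene lists of their pathways were read, each against the shares of all genes called, 32.4% higher and 33.1% lower in null OC and 30.4% higher and 30.1% lower with RANK-L in WT. With so few genes a list, nothing particular to a list is read from its counts. The 14 osteoclast target genes all rose with RANK-L in WT (median log2 8.88) and were all lower in null OC (median -5.79). Calcr had 0 counts in WT BMM and null OC, and with Calcr at a bound of 3 counts per library these medians were 8.14 and -5.79. Calcr passed the filter on low counts only through WT OC, which fixed its direction in both comparisons. Oscar, Dcstamp and Car2 did not pass that filter in BMM alone and entered the RANK-L tests through OC libraries, where they were high. Their rise is therefore no independent support. In null, 9 of 14 still rose with RANK-L and none fell, where 6.78% of all genes were called higher and 6.07% lower. Ctsk, the collagen-degrading protease of osteoclasts, rose by 4.34 (SE 0.37, adjusted p 1.06e-06) and Itgb3, the β3 integrin, by 0.99 (SE 0.14, adjusted p 3.04e-04). These lists hold genes named for the osteoclast, so their direction is not independent evidence. Among the 4 named by smallest p in the OC comparison, Atp6v0d2, a proton pump subunit, was lower by a log2 ratio of -5.21 (SE 0.10), Itgb3 by -5.37 (SE 0.10), Mmp9, a gelatinase, by -4.70 (SE 0.11) and Slc4a2, an anion exchanger, by -3.55 (SE 0.07).

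Blimp1 is known to silence Irf8 and Bcl6, and both fell with RANK-L in WT and were higher in null OC than in WT OC. Of 9 genes in the list of these and the clock partners of Bhlhe40, 6 fell and 1 rose with RANK-L in WT. In null OC against WT OC, 5 were higher and 1 lower. Irf8, a macrophage regulator that blocks osteoclast formation, fell by 3.04 in WT on the log2 scale (SE 0.08, adjusted p 5.10e-22) and stood 2.65 above WT in null OC (SE 0.08, adjusted p 3.42e-14), at 208 CPM against 31.9. Bcl6 was higher there by 1.42 (SE 0.10) and Bhlhe41, the paralog of Bhlhe40, by 0.85 (SE 0.07). Irf8 was lower in null BMM, by -0.50 (SE 0.07) on the log2 scale. Macrophage marker sums moved the same way between WT and null OC, and their part was not tested.

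Among the MiT, ETS, C/EBP and RUNX relatives of Mitf and PU.1, 8 of 10 tested were higher and 1 lower in null OC, against 32.4% and 33.1% of all genes. Cebpb rose by 2.69 (SE 0.16), Cebpa by 2.09 (SE 0.15), Ets2 by 2.00 (SE 0.07) and Fli1 by 1.56 (SE 0.08) relative to WT OC, while Tfec, a macrophage MiT factor, was lower by a log2 ratio of -0.93 (SE 0.11). Of 9 tested AP-1 and ATF partners, 6 were higher and 2 lower. Batf (1.93, SE 0.15), Atf3 (1.88, SE 0.09) and Jun (0.76, SE 0.05) were higher in null OC, and Atf4, a stress-response factor, was lower (-1.81, SE 0.07).

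In the NFAT and calcineurin list, 3 of 12 tested were higher and 4 lower in null OC, near the shares of all genes. Rcan1, a calcineurin regulator that is itself an NFAT target, stood apart at -3.47 (SE 0.15, adjusted p 8.94e-12), from 171 CPM in WT OC to 15.9 in null OC. Plcg2 (0.64, SE 0.08), Btk (-0.53, SE 0.08) and Nfat5 (-0.57, SE 0.17) changed less. Upstream, RANK itself (Tnfrsf11a) was lower by a log2 ratio of -2.09 (SE 0.07, adjusted p 9.70e-14) and Traf6 by -2.40 (SE 0.13, adjusted p 7.81e-11) in null OC. In null BMM they were lower as well, by log2 ratios of -0.68 (SE 0.10) and -1.52 (SE 0.12). Of the 10 receptor and NF-κB genes, 5 were higher and 3 lower in null OC, against 32.4% and 33.1% of all genes, and the higher ones included Fcer1g (0.95, SE 0.07) and Relb (0.70, SE 0.07).

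In the Myc network, Mycl, the L-Myc gene, was lower in null OC by a fitted log2 fold change of -5.69 (SE 0.42, adjusted p 3.28e-09), at 7.21 CPM in WT OC and 0.135 in null OC. At these levels Mycl passed the filter on low counts only through WT OC, which fixed its direction and its place among the lower genes. Of the 9 genes tested in that list, 4 were higher and 3 lower in null OC, again near those shares, with Mxd3 (0.78, SE 0.12) and Mxd1 (0.69, SE 0.15) higher and Mxi1 lower (-0.59, SE 0.13). Of 10 Myc target genes, 8 rose and 1 fell with RANK-L in WT, and 7 were lower and 1 higher in null OC. The nucleolar genes Ncl (-1.29, SE 0.07), Npm1 (-1.18, SE 0.08) and Nop58 (-0.96, SE 0.08) were lower there, and the cyclin gene Ccnd2 was higher (4.32, SE 0.20).

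**Figure D5:**
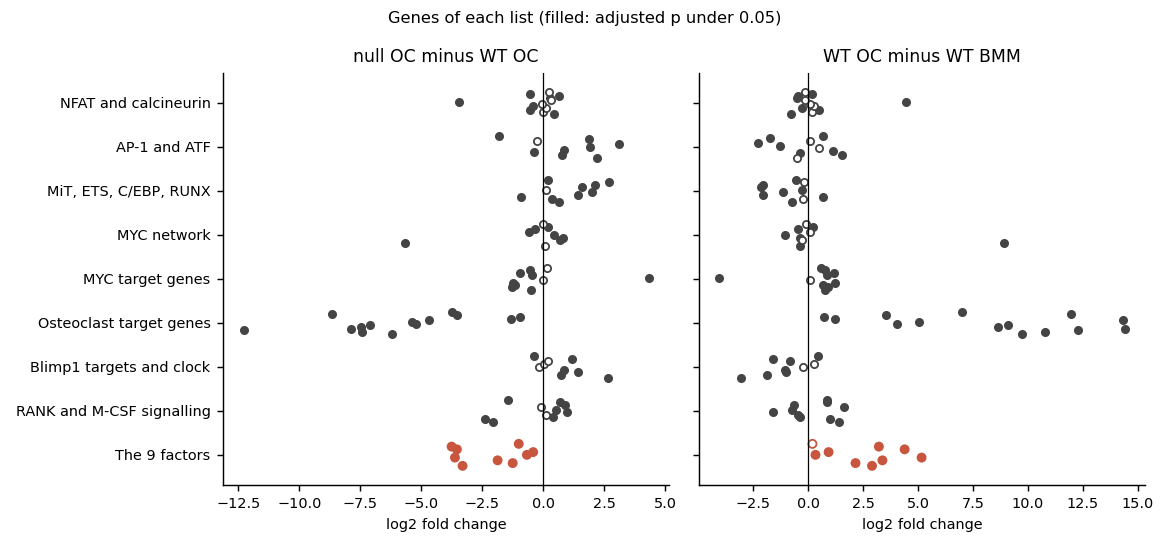
Log2 fold change of each tested gene of 8 lists and of the 9 factors (red), for null OC minus WT OC (left) and for WT OC minus WT BMM (right), filled where the adjusted p was under 0.05. The osteoclast target genes and the 9 factors lie to the left of 0 on the left plot, while 8 of 10 relatives of Mitf and PU.1 were called to the right.

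For each factor, the 3 genes with the most similar pattern over the 36 libraries were found among 10230 genes, by Pearson's r of log2 CPM, given as a description. The 36 points share 6 groups, so r mostly measures the likeness of group means. Nfatc1 was closest to Itgb3 (0.97), Pheta1 (0.97) and Atp6v0d2 (0.96). Fosl2 was closest to Slc39a13 (0.97), Pkp2 (0.97) and Tiam2 (0.97), Bhlhe40 to Pdk1 (0.98), Lims2 (0.98) and Steap4 (0.97), and Jdp2 to Fam102a (0.95), Gstt1 (0.94) and Grk3 (0.94). Gstt1 was also among the closest to Prdm1 (0.94), after Gnb4 (0.94) and before Coq8a (0.93). Specc1 (0.98) and Arhgef6 (0.97) were among the closest to Mitf, and Spi1 was closest to Pik3r5 (0.96), Atp6ap1 (0.96) and Galnt6 (0.96). Myc was closest to Asph (0.94), Cblb (0.93) and Fkbp1a (0.91), and Fos to Chchd10 (0.90), Mthfd2 (0.87) and Akr1c18 (0.87). Among the members themselves, Jdp2 and Prdm1 had the highest r (0.92), then Mitf and Spi1 (0.89), while Fosl2 and Mitf had the lowest (-0.49).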

How the data were processed

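RNA-seq of 36 libraries gave the deposited estimated counts and TPM (transcript abundance relative to length and library size) per transcript, per the file headers. The submitters' processing notes name kallisto, DESeq2 and GRCh38, a human build, although the transcript identifiers in the deposited files are mouse; versions are not given in the sources used here. The deposited TPM values were used as the authors gave them. Of 88198 transcripts, 97.5% matched GENCODE M21, leaving 0.63% to 0.97% of counts per library unmatched. Estimated counts were summed per gene and rounded. Genes were filtered with filterByExpr, scaled by TMM and tested with edgeR 4.0.16 (R 4.3.3, glmQLFit with robust = TRUE), with Benjamini-Hochberg adjustment over all genes tested and a threshold of 0.05. Genotype was tested within each culture (12 libraries), the RANK-L response over the 24 BMM and OC libraries, and comparisons with OB and the 15 group pairs over all 36. Alternatives were DESeq2 1.42.0, limma-voom (limma 3.58.1), RLE scaling, other filters, a replicate block, a transcript-length offset (lowess span 0.3) and leaving out libraries. The test was checked on simulated data. The members and lists were chosen with earlier results of these data known. In each list the up to 4 genes with the smallest p in OC, at a mean of at least 1 CPM, were named, and other list genes named were chosen after their values were seen. Some genes that the naming rules include are not reported here. Intervals of differences are 95%. Whether replicate numbers pair the libraries is not given in the labels, and the main fits treated the libraries as unpaired.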

Additional observations from a re-analysis of the deposited data

Results flagged for a closer look

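In 3 of the 54 groups of 6 libraries, 1 library stood apart from the other 5 by more than 0.625 of the group's range, and chance alone flags about 1 group in 20. Mitf had 119.6 CPM in WT OC replicate 4, the highest of its group, with a gap of 0.646 of the range. Mitf had 42.6 CPM in null OC replicate 6, the lowest, with a gap of 0.714. Prdm1 had 58.1 CPM in WT OC replicate 5, the highest, with a gap of 0.667.

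The RANK-L response differed between genotypes, null minus WT on the log2 scale, for all 9 factors. Jdp2 passed the filter on low counts only through WT OC, which fixed its direction. The difference was -2.52 for Nfatc1, -2.14 for Fos, -3.05 for Fosl2, -5.31 for Jdp2, -0.38 for Mitf, -0.68 for Spi1, -4.26 for Prdm1, -2.72 for Bhlhe40 and 0.59 for Myc.

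The genotype effect differed between OB and OC, on the log2 scale, by 4.08 for Nfatc1, 1.15 for Fos, 2.50 for Fosl2, 3.90 for Jdp2, 1.00 for Mitf, 4.61 for Prdm1, 3.65 for Bhlhe40 and 1.44 for Myc. Between OB and BMM it differed by 1.56 for Nfatc1, -1.01 for Fos, -0.56 for Fosl2, -1.43 for Jdp2, 0.61 for Mitf, -0.52 for Spi1, 0.91 for Bhlhe40 and 2.02 for Myc. The OB and BMM differences of Mitf and Spi1 were not called with the transcript-length offset.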

How the results depend on the processing

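All 9 genotype differences in OC kept their direction and their call under every alternative run. For Jdp2, which passed the filter on low counts only through WT OC, the direction was fixed by that group. In OB, the 4420 genes called fell to 2080 with the transcript-length offset and to 1760 with that offset and the replicate block, and the 5 members called became 3 with the replicate block, 2 with the offset, 1 with both and 3 without null OB replicates 4 and 5. The member transcripts called in OB went from 5 to 3 with the replicate block. Myc, not called with RANK-L in WT in the main fit, was called higher there under limma-voom (log2 0.19, adjusted p 0.0128). The RANK-L response in null had 1628 genes called, 1037 with limma-voom and 810 to 2143 when 1 library was left out (over 1.5 times away without null BMM replicate 2, 3 or 4 or null OC replicate 3), and its 3 members became 1, Myc, when all 36 libraries were fitted together, with Fosl2 and Bhlhe40 lost. Same-numbered libraries had correlations of -0.231 to 0.207, and at most 3 of 6 matched their own number best. The labels do not say whether replicate numbers pair the libraries, and these values do not settle it.

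Values that changed sign were near 0 and not called. The OB minus BMM difference of the genotype effect in Prdm1 was -0.0523 with the block and offset. WT OB against WT OC in Bhlhe40 was 0.0663 with DESeq2, 0.0662 with RLE scaling, 0.0127 with limma-voom, 0.0085 with a mean of at least 10 counts, 0.0471 with no filter, 0.0412 with the offset and 0.0392 with block and offset. The null RANK-L response of Fos was -0.0137 with the offset and -0.0132 with block and offset, and that of Mitf 0.0115 with limma-voom and 0.0476 without the 3 OC libraries left out together. With 1 library left out, these values ran from -0.0337 to 0.0585 for Bhlhe40 in WT OB against WT OC and from -0.3118 to 0.0137 for Bhlhe40 in null OB against WT OB. The null RANK-L responses ran from -0.0452 to 0.0696 for Fos, -0.0952 to 0.0523 for Mitf, -0.3324 to 0.048 for Jdp2 and -0.0074 to 0.2819 for Prdm1. The cause of these changes was not tested. Jdp2, at 2 to 9 counts in WT BMM, is the member that depth limits most.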
